A study of Mus musculus with 108 samples.

Results

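Type I interferon-stimulated genes were examined in 6 tissues of 6 inbred mouse strains. The list held 41 genes, chosen by name. Of these, 39 had at least 1 probe set annotated to that gene alone, and they were 39 of the 18193 genes tested. Ifi44 and Isg15 had no such probe set and were left out. Where a gene had several single-gene probe sets, which was so for 18 members, the one with the highest mean signal over all arrays stood for it. The study hybridised brain, heart, kidney, liver, lung and testis RNA from male mice to Affymetrix mouse expression arrays, with 3 arrays for each strain in each tissue and thus 18 arrays a tissue. The Jackson Laboratory supplied AKR/J, C3HeB/FeJ, DBA2/J, A/J and C57BL/6J mice. Charles River supplied 129S2, so that for this strain genotype and supplier cannot be told apart. All mice were 11 to 14 weeks old and no treatment or infection was named, which does not by itself show that the mice were free of infection. The titles number 22 animals. For C57BL/6J the brain, heart and lung came from animals 2, 3 and 4, and the kidney, liver and testis from animals 10, 11 and 12. The labelling protocol speaks of RNA pools, so whether an array held RNA of 1 animal or of several is not settled, and p-values measure the spread between arrays.

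Type I interferons are secreted proteins that signal through a shared receptor, made of Ifnar1 and Ifnar2, to the kinases Jak1 and Tyk2. These activate Stat2, which acts with Irf9 in a complex that binds the interferon-stimulated response element in target promoters. Many of the induced genes code for proteins that sense viral RNA or block steps of viral replication, and uninfected tissue keeps a low tonic level of the same signalling.

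The response element has a core of direct GAAA repeats. The letters GAAANNGAAA, or TTTCNNTTTC on the other strand, were searched in the 250 bases before each RefSeq gene start (GRCm38.p6). A window was at hand for 29 of the 41 listed genes, and 9 of these (31.0%) held at least 1 match. Over all genes with a window, 936 of 27025 (3.46%) held one, and over all windows 978 of 32851 (2.98%). A match is a description of letters, not a bound site. The stretches of 8 measured members follow, 60 bases each, written 5′ to 3′ on the gene's strand, because these promoters hold a match. The listed genes were chosen by name and not by these letters. Capitals mark the matches, which overlap in Bst2 and Oas1a.
Rsad2 (chr12:26456538-26456597, minus strand): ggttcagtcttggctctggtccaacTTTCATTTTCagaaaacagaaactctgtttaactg
Bst2 (chr8:71537565-71537624, minus strand): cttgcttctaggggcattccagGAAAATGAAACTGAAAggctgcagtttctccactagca
Ifit1 (chr19:34640769-34640828, plus strand): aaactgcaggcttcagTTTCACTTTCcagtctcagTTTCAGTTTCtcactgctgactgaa
Ifit3 (chr19:34583365-34583424, plus strand): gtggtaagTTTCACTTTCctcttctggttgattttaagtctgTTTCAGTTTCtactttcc
Oas1a (chr5:120907526-120907585, minus strand): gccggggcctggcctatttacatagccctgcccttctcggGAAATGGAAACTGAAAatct
Oas3 (chr5:120777700-120777759, minus strand): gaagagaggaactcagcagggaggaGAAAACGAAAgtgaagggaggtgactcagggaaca
Stat2 (chr10:128270251-128270310, plus strand): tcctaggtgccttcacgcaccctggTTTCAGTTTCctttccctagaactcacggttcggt
Trim30a (chr7:104465195-104465254, minus strand): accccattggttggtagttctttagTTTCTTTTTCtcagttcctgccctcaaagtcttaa

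The labels were checked against the data before any comparison. On every array the marker list of the labelled tissue was the highest of the tissue lists. For strain, each array was set against the strain profiles formed by genes that differed widely in at least 3 other tissues, with the interferon-stimulated genes left out. By this measure 106 arrays lay nearest to their own strain and 2 did not. The exceptions were the brain arrays labelled 129S2 2 and AKR/J 2. The library labelled 129S2 2 correlated at 0.58 with the AKR/J profile and at 0.13 with its own. The library labelled AKR/J 2 correlated at 0.53 with the 129S2 profile and at 0.18 with its own. Several brain results are therefore also given without this pair of arrays, and brain results with no such value include the pair.

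Signal is given as the deposited log2 values, on which 1 unit is a 2-fold difference. The members were above the median signal of all probe sets in most tissues: 36 of 39 in heart and in lung, 35 in kidney and in liver, 20 in brain and 19 in testis. Lung had the highest mean of the 6 tissues for 33 of 39 members, and testis the lowest for 25. The deposited scale itself differed by tissue, with array medians from 4.95 to 5.01 in liver and from 6.80 to 6.83 in lung, so levels in different tissues were not tested against each other. Exceptions to the lung maximum were Trafd1, Herc6 and Dhx58, highest in testis (11.04, 9.07 and 8.55), Samd9l in kidney (10.58), Bst2 in liver (9.78) and Cmpk2 in brain (8.74).

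Within a tissue, the strains were compared by limma's moderated F test, with p-values adjusted by the Benjamini-Hochberg method over all 18193 genes and a threshold of 0.05. In liver 31 of 39 members passed, where 31.6% of all genes did. In kidney 30 members passed (46.1% of all genes), in heart 22 (21.0%), in lung 19 (32.5%), in testis 18 (40.5%) and in brain 16 (23.1%). Brain kept a count of 16 without the pair of doubted arrays. The testis count lay close to the share of all genes, and the counts in the other 5 tissues lay above it. The spread of the strain means was also widest in liver. The median member spanned 0.90 log2 units from the lowest to the highest strain there, against 0.26 for the median gene. The same medians were 0.56 against 0.28 in heart, 0.47 against 0.28 in kidney, 0.38 against 0.26 in lung, 0.31 against 0.19 in brain and 0.28 against 0.24 in testis.

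Members that passed with a span of at least 1 log2 unit numbered 16 in liver (5.66% of all genes), 5 in heart (3.57%), 4 in kidney (5.07%), 4 in lung (5.21%), 3 in testis (4.09%) and 0 in brain (1.64%). All members passed in at least 1 tissue, as did 78.8% of all genes. Oasl2, Bst2, Trim30a, Xaf1 and Lgals3bp passed in all 6 tissues, as did 3.57% of all genes. Oasl1, Mx2, Parp14, Oas3, Irf1 and Ifit2 passed in 1 tissue each, as did 26.2% of all genes. Between arrays of a strain and tissue the members also varied somewhat more than the typical gene, with a median residual SD of 0.17 in heart and 0.16 in liver, against 0.13 and 0.12 over all genes. Rsad2 had the largest residual SD of the members in heart (0.64), lung (0.55) and brain (0.28).

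**Figure D1:**
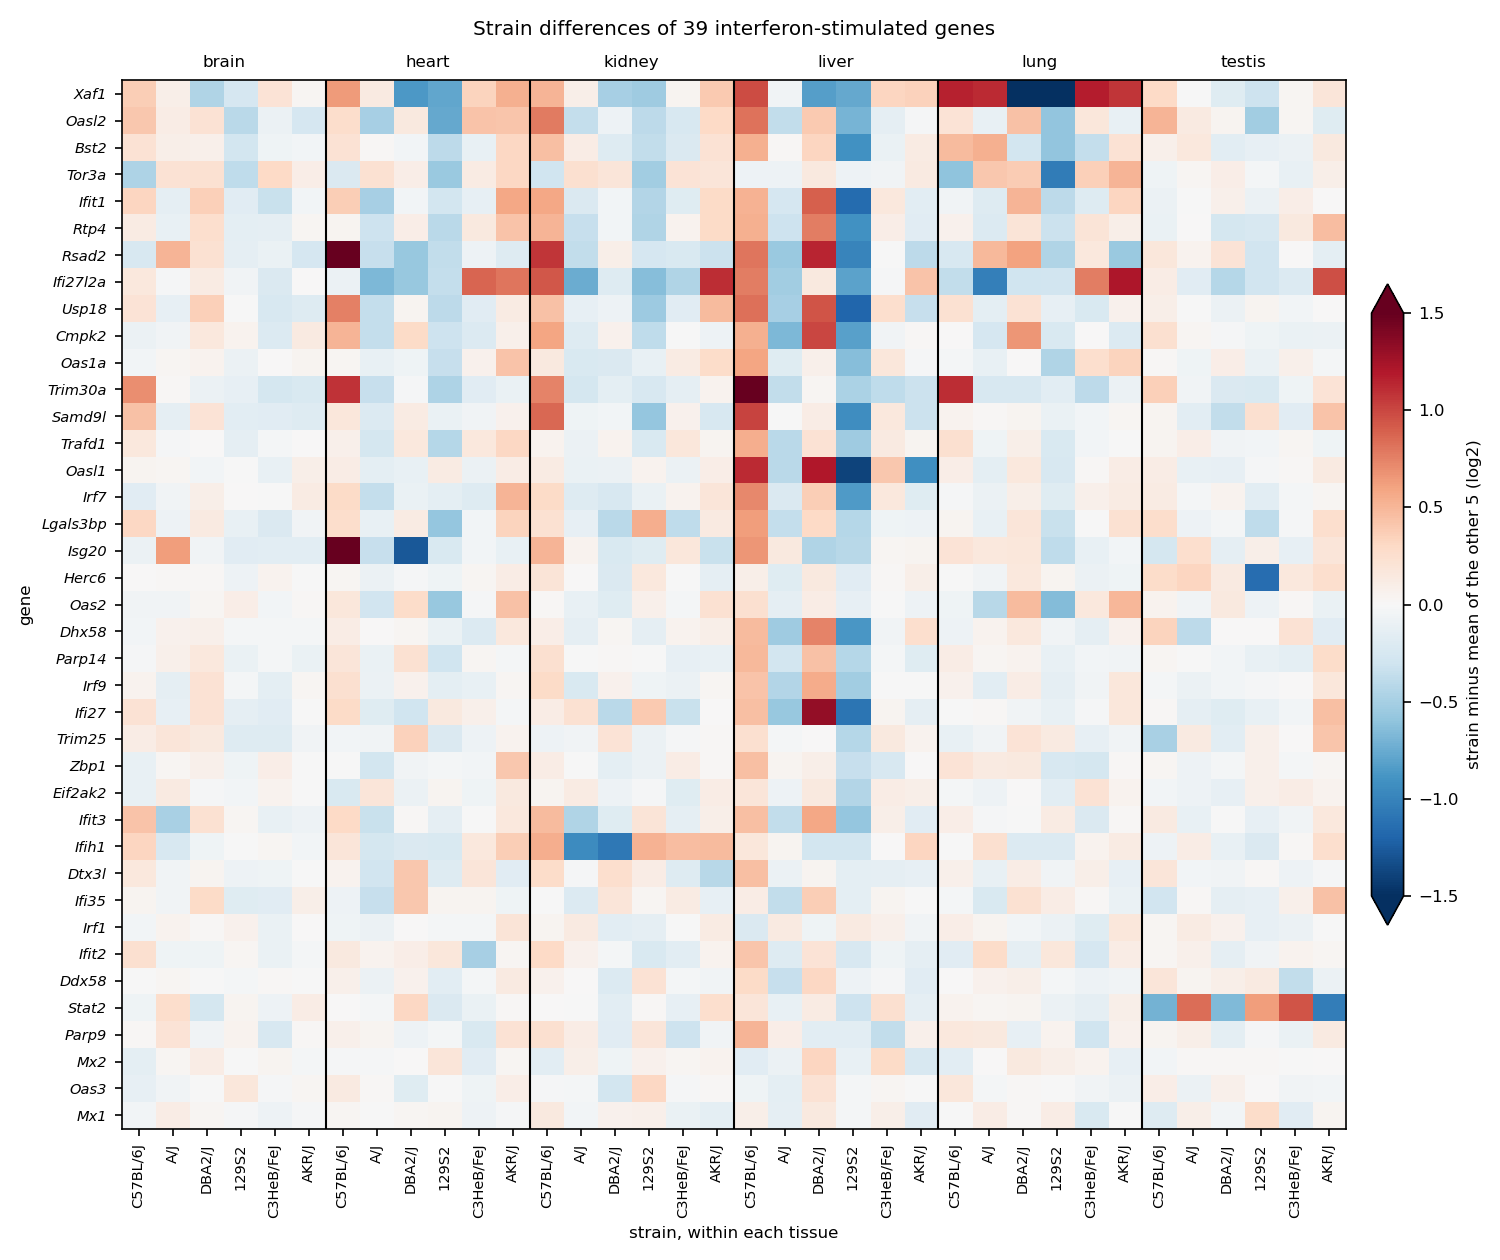
Difference of each strain from the mean of the other 5 strains (log2, colour) for 39 interferon-stimulated genes, with the strains of each tissue side by side and genes ordered by their 129S2 difference over 6 tissues. Colours saturate at 1.5 log2 units. The liver block holds a red C57BL/6J column and a blue 129S2 column over most genes, while Xaf1, Ifih1, Stat2 and Herc6 have strong cells in 1 or a few tissues.

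Averaged over the 6 tissues with the animal as a random block, C57BL/6J and 129S2 stood at opposite ends. In C57BL/6J 29 members were higher than in the other 5 strains (13.0% of all genes) and 2 lower (18.5%), with a median member difference of 0.18. In 129S2 1 member was higher (16.4%) and 27 lower (16.7%), with a median of -0.21. A/J had 5 higher (14.0%) and 20 lower (12.7%), with a median of -0.10. DBA2/J had 19 higher (16.7%) and 7 lower (14.2%), with a median of 0.057. AKR/J had 12 higher (13.3%) and 3 lower (10.5%), with a median of 0.052. C3HeB/FeJ had 6 higher (12.4%) and 7 lower (10.1%), with a median of -0.036. Over all genes the same medians lay between -0.015 and 0.0082. The counts here and by tissue rest on the brightest probe sets. Among them is that of Xaf1, whose direction reversed with its other probe set, as described below. Beyond the genes described below, Rsad2 differed by 0.52 in C57BL/6J (SE 0.099) and by -0.31 in AKR/J, a call lost without AKR/J animal 2 or animal 3 (adjusted p up to 0.157). Isg20 differed by -0.33 in DBA2/J and Trim30a by -0.23 in C3HeB/FeJ. These 6 comparisons share arrays, since each strain is part of the others' reference, so they are not independent of each other.

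The DBA2/J count was lower without liver, in a fit that also had fewer arrays. Without liver, an alternative chosen after seeing the data, DBA2/J had 8 members higher and 9 lower, while C57BL/6J had 21 higher and 4 lower and 129S2 had 2 higher and 19 lower. Without DBA2/J animal 1 the DBA2/J count of 26 called members fell to 15. Without the doubted brain arrays the called members numbered 31 in C57BL/6J, 28 in 129S2, 25 in A/J, 25 in DBA2/J, 15 in AKR/J and 13 in C3HeB/FeJ. The shares of all genes in these refits are not given here. Their counts are therefore set only beside those of the main fit.

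The strain differences were not the same in each tissue. The F test of the strain by tissue interaction passed for 39 of 39 members, and for 72.4% of all genes. C57BL/6J kidney, liver and testis came from other animals than its brain, heart and lung. For that strain, tissue and set of animals therefore cannot be told apart between these groups of tissues. By the titles, 129S2 changed animals in part between the same groups of tissues. Within each tissue the strains with the highest and the lowest median member difference are described next. Since they were picked on these medians, their direction is a description. In liver C57BL/6J had 28 members higher (9.94%) and 0 lower (9.24%), with a median difference of 0.47, and 129S2 had 0 higher (5.75%) and 26 lower (6.69%), with a median of -0.44. In 129S2 liver 38 of 39 differences were below 0, and 26 members had their lowest strain mean there, as did 15.4% of all genes. C57BL/6J held the highest liver mean for 19 members and DBA2/J for 17 (17.3% and 18.4% of all genes). Without the liver array of C57BL/6J animal 11, the C57BL/6J count was 18.

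In kidney C57BL/6J had 22 members higher (11.0%) and 1, Tor3a, lower (10.0%), and 129S2 had 7 higher (14.5%) and 14 lower (16.2%). The 129S2 kidney count of 21 fell to 13 without animal 2. In heart C57BL/6J had 7 higher (2.91%) and 1, Eif2ak2, lower (4.49%), and 129S2 had 0 higher (3.11%) and 9 lower (5.38%). AKR/J heart was close to C57BL/6J, with medians of 0.13 and 0.14, and had 8 members higher (1.90%) and 0 lower (2.00%), with the highest heart mean for 16 members (13.0% of all genes) against 11 for C57BL/6J (15.2%). The AKR/J heart count fell to 1 without animal 1 or animal 3, to 4 without its animal 2 and to 5 without C57BL/6J animal 4. The C57BL/6J heart count of 8 fell to 4 without animal 2, and the 129S2 heart count of 9 fell to 5 without animal 1. In lung DBA2/J had 6 higher (6.71%) and 2 lower (5.34%), and 129S2 had 0 higher (6.37%) and 12 lower (6.89%). In testis AKR/J had 11 higher (13.1%) and 2 lower (11.1%), and 129S2 had 2 higher (9.29%) and 6 lower (7.77%), of which 5 in all were called without animal 2. In brain DBA2/J had 2 higher (5.85%) and 2 lower (4.66%), and C3HeB/FeJ had 0 higher (2.24%) and 3 lower (2.48%). The most brain calls among the strains were those of C57BL/6J, whose median of 0.037 was not the highest. It had 11 members higher (6.04%) and 1, Tor3a, lower (7.48%), led by Trim30a (0.70), Samd9l (0.44) and Ifit3 (0.42), and the highest brain mean for 13 members (14.2% of all genes). Its 12 calls were 13 without the doubted pair and from 8 to 13 as each array was left out. The counts of DBA2/J and C3HeB/FeJ rested on single arrays: that of DBA2/J ranged from 1 to 6 and that of C3HeB/FeJ from 0 to 6 as each array was left out, and C3HeB/FeJ had 6 without the doubted pair.

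**Figure D2:**
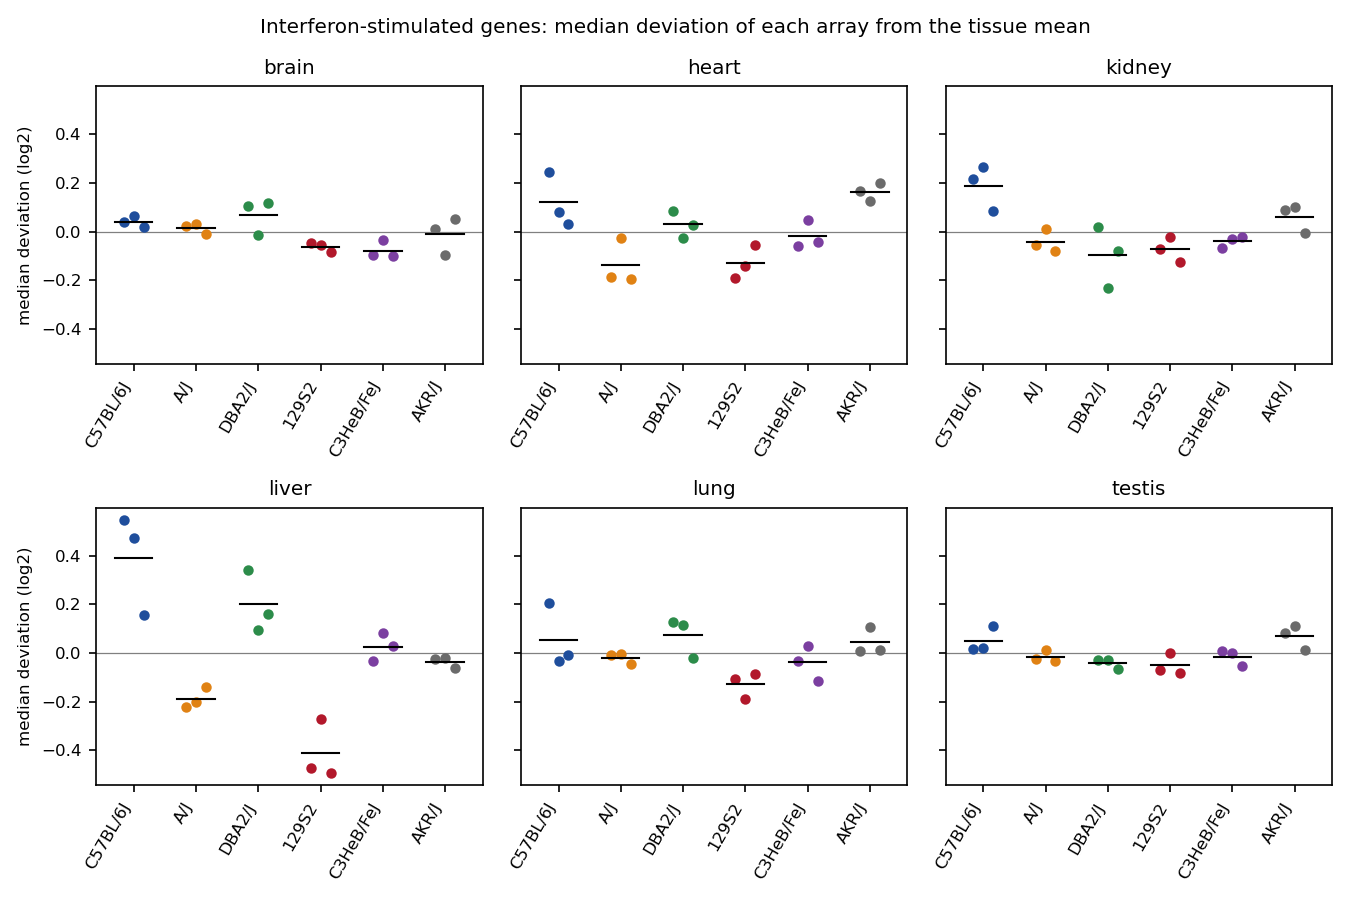
Median deviation of the 39 members from their mean over the 18 arrays of the tissue (log2), 1 point per array and a line at the mean of each strain's 3 arrays. In liver the C57BL/6J arrays lie between 0.15 and 0.55 and the 129S2 arrays between -0.49 and -0.27, and the other tissues stay within a narrower band.

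The deviation of single arrays shows how far this was shared by the arrays of a strain. In liver the median member lay 0.55, 0.47 and 0.15 above the tissue mean on the C57BL/6J arrays and 0.34, 0.096 and 0.16 above it on the DBA2/J arrays. On the 129S2 arrays it lay at -0.47, -0.27 and -0.49, and on the A/J arrays at -0.22, -0.20 and -0.14. The C3HeB/FeJ and AKR/J arrays lay between -0.062 and 0.083. All 3 arrays of C57BL/6J and DBA2/J were above every A/J, AKR/J and 129S2 array. In lung a single C57BL/6J array, animal 2, lay at 0.21, while the other two lay at -0.031 and -0.010.

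Markers of cell types also differed among strains, in some tissues in the members' direction and in others against it. In liver the mean of 12 macrophage markers was 7.88 in C57BL/6J (arrays from 7.63 to 8.02) and 7.48 in A/J (from 7.45 to 7.52), and between 7.13 and 7.24 in the other 4 strains, and 9 of the 12 passed the F test. Of 6 neutrophil markers 2 passed in liver, with S100a8 at 5.46 in C57BL/6J and 3.69 to 4.31 elsewhere, and S100a9 at 6.04 and 4.60 to 5.29. The other neutrophil markers did not pass. Mpo was lowest in C57BL/6J liver, at 4.20 against 4.39 to 4.48 elsewhere, and Ltf was 4.09 there and 4.02 to 4.41 elsewhere. Camp was 4.39 in C57BL/6J and 4.26 to 4.38 elsewhere, and Elane 4.74 and 4.54 to 4.65. The mean of the 6 was 4.82 in C57BL/6J and 4.26 to 4.54 elsewhere. The higher A/J macrophage mean did not hold for every marker. Adgre1 was 7.19 in A/J liver, 7.32 in DBA2/J and 7.41 in 129S2, while Clec4f was 9.50, 9.04 and 9.22 in the same strains. The median member difference in liver was -0.19 in A/J and 0.21 in DBA2/J. In kidney the macrophage mean was 7.17 in C57BL/6J and between 6.75 and 7.01 elsewhere, with 10 of 12 passing. In heart the mean of 6 neutrophil markers was 5.58 in C57BL/6J (from 4.94 to 6.78) and 5.81 in C3HeB/FeJ (from 4.67 to 7.09), and between 4.72 and 4.87 in the other strains, with 0 of 6 passing. The mean of 4 erythroid markers in heart was 7.04 in C57BL/6J (from 6.66 to 7.26), 5.68 in DBA2/J and 6.09 to 6.34 elsewhere. Of these 2 passed, Alas2 at 11.85 in C57BL/6J and 8.83 in DBA2/J, and Slc4a1 at 8.11 and 5.70. In lung the neutrophil mean ran from 7.20 in 129S2 to 9.11 in C57BL/6J, with 3 of 6 passing. The mean of 5 plasma cell markers in lung was 10.70 in 129S2 (from 10.58 to 10.86) and 8.71 to 9.57 elsewhere, with 4 of 5 passing, among them Jchain at 13.42 in 129S2 and 6.67 to 10.23 elsewhere. In testis the macrophage mean was 6.78 in AKR/J and between 6.36 and 6.52 elsewhere, with 8 of 12 passing. In brain it was 7.90 in C57BL/6J and 7.64 to 7.78 elsewhere, with 7 of 12 passing. In lung 129S2 had the highest macrophage mean, 8.82 against 8.54 to 8.80 elsewhere, with 8 of 12 passing. The T cell mean in lung was also highest in 129S2, 7.64 against 6.87 to 7.44, with 3 of 7 passing. In heart the macrophage mean was 7.08 in 129S2, 7.02 in C57BL/6J and highest in C3HeB/FeJ (7.20), with 3 of 12 passing. Markers of plasmacytoid dendritic cells, known producers of type I interferon, had liver list means from 5.37 in C3HeB/FeJ to 5.49 in C57BL/6J. Of these 6 markers 1 passed in liver, Tcf4 at 7.22 in C57BL/6J and 6.65 to 6.91 elsewhere. The liver strain means of Ccr9 (3.37 to 3.51) and Spib (4.09 to 4.34) lay below the liver array medians. The part of these cell types in the results was not tested, and in whole tissue fewer cells of a type and less RNA per cell cannot be told apart.

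Among the transcription factors, Irf7, the amplifier of interferon production, followed the liver pattern. Its liver signal was 8.14, 8.40 and 8.01 in C57BL/6J, 8.03, 7.72 and 7.93 in DBA2/J, and 6.56, 7.25 and 6.84 in 129S2. All C57BL/6J and DBA2/J arrays were above all 129S2 arrays. The 129S2 difference from the other 5 strains was -0.85 (SE 0.11, adjusted p = 3.15e-05). Irf9, the DNA-binding partner of the STAT complex, was 7.67 ± 0.21 (SD, n = 3) in C57BL/6J liver and 6.88 ± 0.20 (SD, n = 3) in 129S2, a difference from the other 5 of -0.52 in 129S2 (adjusted p = 0.000567). Irf1, which responds more strongly to interferon gamma, passed in lung only. Of the 4 factors, 3 passed in liver and in kidney and 1 in each of the other tissues.

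Stat2, the STAT found in the type I complex, had its widest difference in testis, with another order of strains. Its testis signal was 6.38, 6.68 and 6.48 in A/J, 6.40, 6.31 and 6.30 in 129S2, and 6.39, 6.75 and 6.67 in C3HeB/FeJ. It was 5.23 ± 0.33 (SD, n = 3) in C57BL/6J with a highest array of 5.61, 5.39, 5.22 and 5.19 in DBA2/J, and 5.08, 4.83 and 4.95 in AKR/J. The strains thus formed a high and a low set of 3 with no overlap between arrays. The span from AKR/J to C3HeB/FeJ was 1.65 log2 units, 3.14-fold (adjusted p = 7.86e-09). The other Stat2 probe set gave 0.98 for the same strains and passed. In liver Stat2 spanned 0.46, and its C57BL/6J difference of 0.19 there did not pass (adjusted p = 0.123).

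Among the sensors, Ifih1, which binds long double-stranded RNA, split the strains in kidney. It was 6.67, 6.79 and 6.61 in A/J and 6.66, 6.54 and 6.57 in DBA2/J. In C57BL/6J it was 8.01, 7.93 and 7.87, in 129S2 7.84, 7.82 and 8.09, in C3HeB/FeJ 7.76, 7.92 and 7.92, and in AKR/J 7.93, 8.04 and 7.67. No A/J or DBA2/J array reached the lowest of the other 12. The span was 1.35 log2 units, 2.54-fold (adjusted p = 3.22e-10). The 129S2 difference from the other 5 was 0.53 here, against the direction of most members in that strain. Ddx58, the sensor of RNA ends, and the kinase Eif2ak2, which halts translation on double-stranded RNA, passed in 3 and 2 tissues. Dhx58, a relative of both RNA sensors, was 7.38, 6.89 and 7.08 in DBA2/J liver and 5.56, 6.05 and 5.68 in 129S2 liver, without overlap (129S2 difference -0.87). Zbp1, a sensor of Z-form nucleic acid, was 0.45 higher in C57BL/6J liver. All 5 sensors and kinases passed in liver and 1 or 2 in each other tissue.

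The IFIT proteins bind foreign RNA ends and block its translation. Ifit1 in liver was 7.34, 7.46 and 6.87 in C57BL/6J, 7.89, 7.18 and 7.54 in DBA2/J, and 5.47, 6.25 and 5.74 in 129S2. The 129S2 arrays did not overlap those of any other strain, the lowest of which was 6.48 in A/J. The span was 1.72 log2 units, 3.28-fold (adjusted p = 5.35e-05). Ifit3 was 7.76, 7.93 and 7.74 in C57BL/6J liver and 6.80, 7.24 and 6.84 in 129S2 liver. It also had one of the wider brain differences, with 7.80, 7.72 and 7.90 in C57BL/6J brain and 6.94, 7.16 and 7.06 in A/J brain. These brain arrays did not overlap, and the span of 0.76 (adjusted p = 0.000194) kept its value without the doubted arrays, since neither strain is among them. Over 6 tissues Ifit3 was lower in A/J by a difference of -0.29 (SE 0.041), with a difference below 0 in each tissue. Ifit2 passed in kidney alone.

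The OAS enzymes make the short adenylate chains that activate RNase L, and the Oasl proteins are their relatives. Oasl1, which restrains translation of Irf7, had the widest liver span of all members and passed in no other tissue. It was 7.79, 7.51 and 7.01 in C57BL/6J liver, 7.96, 6.99 and 7.56 in DBA2/J, and 6.90, 6.74 and 6.88 in C3HeB/FeJ. It was 6.20, 6.22 and 6.07 in A/J, 5.60, 5.79 and 5.82 in AKR/J, and 5.11, 5.35 and 5.58 in 129S2. The first 3 strains did not overlap the last 3. The span from 129S2 to DBA2/J was 2.16 log2 units, 4.46-fold (adjusted p = 2.06e-07), while the highest strains, C57BL/6J and DBA2/J, differed by less than their spread.

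Oasl2, the neighbour of Oasl1 on chromosome 5, passed in all 6 tissues and was lower in 129S2 over the tissues by a difference of -0.56 (SE 0.055). In kidney it was 6.96, 7.23 and 6.92 in C57BL/6J and 5.93, 6.15 and 6.09 in 129S2, without overlap, and AKR/J animal 2 at 6.99 lay within the C57BL/6J range (span 0.98, adjusted p = 0.000337). In testis it was 5.38, 5.07 and 5.15 in C57BL/6J and 4.15, 4.30 and 4.57 in 129S2 (span 0.86, adjusted p = 0.00114). In brain it was 5.56, 5.33 and 5.34 in C57BL/6J and 4.47, 4.79 and 4.96 in 129S2 (span 0.67, adjusted p = 0.00435), and the span was 0.69 without the doubted arrays. Each of these sets of arrays was separate.

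Oas2 had a lung order of its own. It was 8.08 ± 0.13 (SD, n = 3) in AKR/J lung, 7.91, 8.10 and 8.15 in DBA2/J, and 7.04, 7.23 and 7.09 in 129S2 (span 0.96, adjusted p = 3.51e-05). AKR/J and DBA2/J overlapped each other, and neither overlapped 129S2. Oas1a, which carries 2 overlapping matches close to its start, was lower in 129S2 over the tissues by a difference of -0.29. Oas3, whose promoter also holds the letters, passed in 1 tissue only, kidney, where 129S2 was higher by 0.31. Of the 5 members of the family, 3 passed in heart, kidney, liver and lung and 1 in brain and testis.

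**Figure D3:**
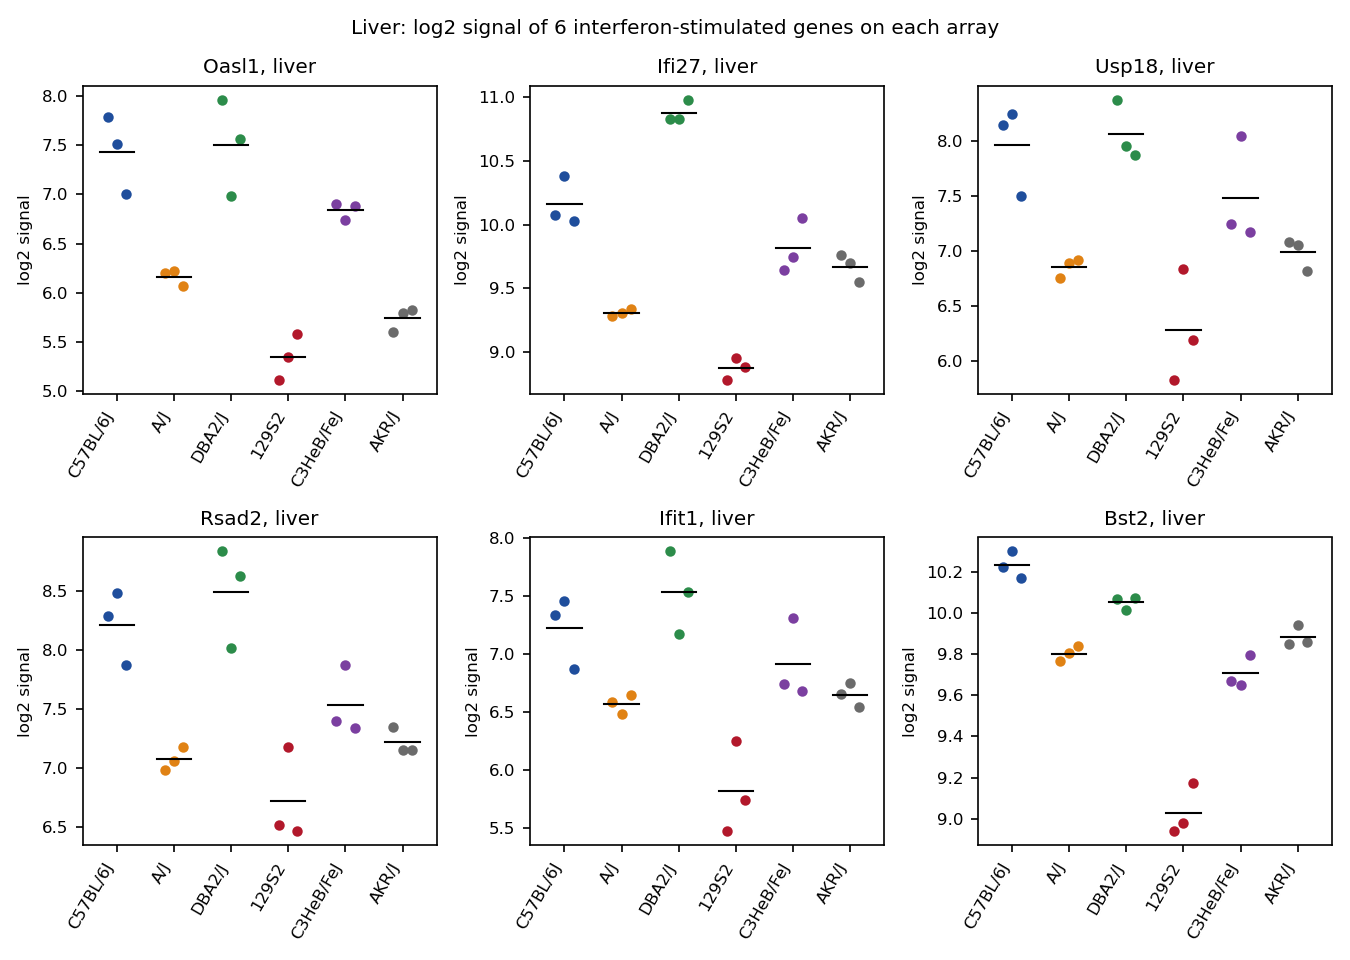
Log2 signal in liver of Oasl1, Ifi27, Usp18, Rsad2, Ifit1 and Bst2, 1 point per array and a line at the mean of each strain's 3 arrays. In each panel 129S2 has the lowest mean, and C57BL/6J and DBA2/J have the highest means.

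Among the effectors, Rsad2 (viperin), which makes a chain-terminating nucleotide, shared its position next to Cmpk2, a mitochondrial nucleotide kinase, on chromosome 12. In liver Rsad2 was 8.28, 8.48 and 7.87 in C57BL/6J, 8.83, 8.01 and 8.63 in DBA2/J, and 6.52, 7.18 and 6.46 in 129S2. The 129S2 arrays overlapped those of A/J (6.98, 7.06 and 7.18) and AKR/J, but not those of C57BL/6J or DBA2/J. The span was 1.77 log2 units, 3.41-fold (adjusted p = 1.31e-05). In kidney Rsad2 was high in a single strain, with 10.00, 9.93 and 9.88 in C57BL/6J and between 8.53 and 9.21 on all other arrays. The C57BL/6J difference there was 1.08 (SE 0.083, adjusted p = 2.77e-08). Cmpk2 followed in both tissues, with 8.27, 8.13 and 8.01 in C57BL/6J kidney and a DBA2/J mean highest in liver (span 1.52). Over 6 tissues Cmpk2 was higher in DBA2/J by 0.36 (SE 0.045) and lower in A/J by a difference of -0.25.

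In heart, Rsad2 and Isg20, an exonuclease that degrades single-stranded RNA, had the widest spans, but with scattered arrays. Isg20 was 9.57, 8.62 and 9.47 in C57BL/6J heart, and 6.29, 6.36 and 6.87 in DBA2/J heart. C3HeB/FeJ animal 2, at 8.72, lay within the C57BL/6J range, while the other C3HeB/FeJ arrays were at 7.10 and 6.78. The C57BL/6J difference was 1.99 (SE 0.31, adjusted p = 0.000475), and the span of 2.71 passed with an adjusted p of 0.00213. Rsad2 in heart was 10.25, 9.33 and 9.98 in C57BL/6J, 7.98, 8.05 and 8.23 in DBA2/J, and 8.22, 9.70 and 7.57 in C3HeB/FeJ. Its span of 1.76 had an adjusted p of 0.0462, which rose to 0.140 under limma's robust prior with a trend and to as much as 0.205 when single arrays were left out. The neutrophil marker mean given above was highest in C57BL/6J and C3HeB/FeJ, and the erythroid mean was highest in C57BL/6J and lowest in DBA2/J, the strains at both ends of Isg20. Their part in these spans was not tested. In lung Rsad2 did not pass (span 0.96, adjusted p = 0.224), and DBA2/J animal 2 stood at 11.17 beside 9.62 and 9.30.

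Bst2 (tetherin), which holds budding virions at the cell surface, had its lowest mean in 129S2 in 5 tissues and in DBA2/J in testis. In liver it was 8.94, 8.98 and 9.17 in 129S2, against 9.65 to 10.30 on the other 15 arrays. The 129S2 difference was -0.91 (SE 0.056, adjusted p = 1.98e-09), or 1.87-fold. In lung both high strains lay above all other arrays, with 10.17, 9.99 and 10.04 in C57BL/6J and 10.13, 10.19 and 10.01 in A/J, and between 9.03 and 9.95 elsewhere. Over 6 tissues the 129S2 difference was -0.44 (SE 0.028). Samd9l, which restricts viral translation, was 11.36, 11.27 and 11.26 in C57BL/6J kidney and 10.04, 9.98 and 10.27 in 129S2 kidney. No other array overlapped either set except AKR/J animal 3 at 10.23 (span 1.20, 2.30-fold, adjusted p = 2.66e-07). Rtp4, a chaperone-like inhibitor of viral replication, was 7.90, 8.42 and 7.99 in 129S2 liver and 9.82, 9.32 and 9.37 in DBA2/J liver.

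Mx1 and Mx2, GTPases that block incoming viruses, did not follow this order. RefSeq gives both as transcribed pseudogenes in the reference genome, which is that of C57BL/6J. Mx1 was higher in 129S2 over the tissues by 0.077 (SE 0.029, higher in 4 of 6 tissues), the only member called higher in that strain, and Mx2 was lower in C57BL/6J by a difference of -0.12. Of the 8 effectors, 7 passed in kidney and liver, 6 in testis, 5 in heart and 3 in brain and lung.

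Usp18, which removes Isg15 from proteins and damps the receptor, followed the liver order. It was 8.14, 8.25 and 7.50 in C57BL/6J liver, 8.37, 7.95 and 7.87 in DBA2/J, and 5.83, 6.84 and 6.19 in 129S2 (span 1.78, 3.43-fold, adjusted p = 7.70e-05). The 129S2 set lay below both others. In heart it was 6.70, 6.15 and 6.19 in C57BL/6J and no higher than 5.96 elsewhere (difference 0.75, SE 0.12). Trim30a, a ubiquitin ligase family member, was highest in C57BL/6J in every tissue and 0.92 higher there over the 6 tissues (SE 0.042). In liver it was 7.87, 7.72 and 7.83 in C57BL/6J and between 5.91 and 6.72 on the other 15 arrays, a difference of 1.52 (adjusted p = 4.39e-09). In lung it was 10.40, 10.09 and 10.06 against 8.56 to 9.32 (span 1.25), in heart 7.94, 7.70 and 7.65 against 6.36 to 7.07 (span 1.28), and in brain 6.20, 6.21 and 6.56 against 5.32 to 5.87 (span 0.80).

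This Trim30a pattern was partly that of a single probe set. The other Trim30a probe set gave 1.28 for the same strains in liver and passed there, but only 0.14 in brain, 0.083 in heart, 0.15 in lung and 0.023 in testis, where it did not pass, and 0.048 in kidney. Trim30a has close paralogs, so its values are uncertain in which gene they count. Herc6, the mouse ligase for Isg15, was low in 129S2 testis, with 8.22, 8.17 and 7.98 against 9.07 to 9.39 on the other 15 arrays (difference -1.14, SE 0.051, adjusted p = 2.07e-11). Trim25, a ligase that activates Ddx58, was 7.55, 7.67 and 7.56 in AKR/J testis and 6.97, 6.71 and 6.82 in C57BL/6J testis (span 0.76, adjusted p = 3.12e-05). Its arrays in these strains did not overlap. One of its other probe sets gave 0.84 and passed, and another gave 0.17 and did not (adjusted p = 0.0969). Dtx3l, Parp9 and Parp14, which modify chromatin and STAT signalling and are neighbours on chromosome 16, passed in 3, 3 and 1 tissues. Parp9 was lower in C3HeB/FeJ over the tissues, by a difference of -0.26 (SE 0.032), with differences below 0 in all of them.

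**Figure D4:**
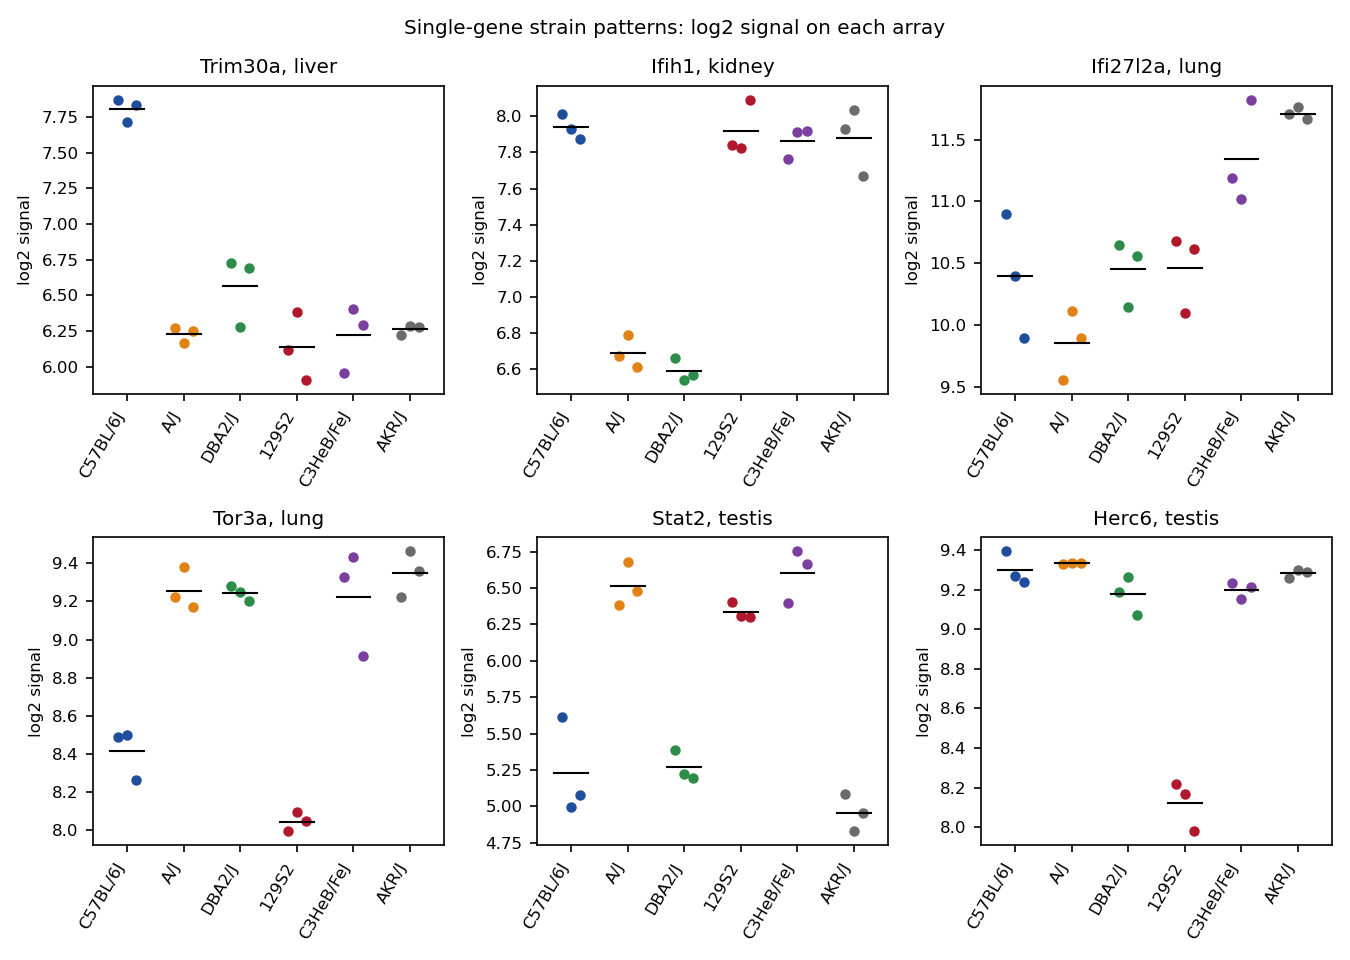
Log2 signal of Trim30a in liver, Ifih1 in kidney, Ifi27l2a and Tor3a in lung, and Stat2 and Herc6 in testis, 1 point per array and a line at the mean of each strain's 3 arrays. Each gene orders the strains differently: Trim30a is high in C57BL/6J alone, Ifih1 is low in A/J and DBA2/J, Stat2 forms a high and a low set of 3 strains, and Herc6 is low in 129S2 alone.

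Ifi27 and Ifi27l2a, small membrane proteins that are neighbours on chromosome 12, differed from each other. Ifi27 was 10.83, 10.83 and 10.98 in DBA2/J liver and 8.78, 8.95 and 8.88 in 129S2 liver, with every other array between 9.29 and 10.38. The span was 2.01 log2 units, 4.02-fold (adjusted p = 1.13e-09). Ifi27l2a was highest in AKR/J, where it was 0.76 higher over the 6 tissues (SE 0.076), and lowest in A/J (-0.52, SE 0.076). In lung it was 11.70, 11.77 and 11.66 in AKR/J and 9.55, 10.11 and 9.89 in A/J (span 1.86, 3.63-fold, adjusted p = 0.000211). C3HeB/FeJ animal 3 had the highest single lung value, 11.82. In that strain 1 lung array reached a mean of 9.77 over 8 skeletal muscle markers, of which 1 passed, and no other strain's array was above 6.14. In kidney Ifi27l2a was 9.79, 10.11 and 10.30 for C57BL/6J, 10.44, 9.81 and 10.38 for AKR/J, and 8.75, 8.53 and 8.73 in A/J (span 1.54, adjusted p = 6.17e-05). AKR/J and C57BL/6J overlapped there. In heart C3HeB/FeJ (9.97, 10.59 and 10.03) and AKR/J (10.29, 10.34 and 9.79) were both high, with 129S2 animal 2 at 9.95 between them. In testis AKR/J (6.78, 6.60 and 6.98) was alone (difference 0.97, adjusted p = 2.61e-06).

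Tor3a, an interferon-induced ATPase, went against the C57BL/6J direction. In lung it was 8.49, 8.50 and 8.27 in C57BL/6J and 7.99, 8.10 and 8.05 in 129S2, against 8.91 to 9.46 on the other 12 arrays (span 1.30, adjusted p = 3.92e-07). Over 6 tissues it was lower in both C57BL/6J (-0.29) and 129S2 (-0.44). In brain it was 5.70, 5.67 and 5.63 in C57BL/6J and 6.34, 6.40 and 6.18 in C3HeB/FeJ (span 0.64, adjusted p = 0.00258). One further Tor3a probe set gave 1.35 for the lung strains and passed, and another gave -0.022 and did not, so the lung difference depended on the probe set. Lgals3bp, a secreted glycoprotein, passed in all tissues and was 0.54 higher in 129S2 kidney but lower in 129S2 lung and testis (-0.33 and -0.38). Ifi35 and Trafd1 passed in 5 tissues each with smaller differences.

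Xaf1, which binds the apoptosis inhibitor Xiap, had the widest span of any member and the smallest interaction p (adjusted p = 9.82e-31), but its direction depended on the probe set. By the brightest probe set the lung signal was 10.42, 10.05 and 10.06 in C57BL/6J, between 10.01 and 10.30 in A/J, C3HeB/FeJ and AKR/J, 8.04, 7.79 and 7.62 in DBA2/J, and 6.66, 6.87 and 7.01 in 129S2. The span was 3.35 log2 units, 10.20-fold (adjusted p = 1.10e-11), with no overlap between the high 4 strains, DBA2/J and 129S2. The other Xaf1 probe set gave the mirror image. Its lung means were 10.28 in DBA2/J and 10.02 in 129S2, against 4.95 to 5.19 in the remaining strains. In heart it read 8.37 in DBA2/J and 7.90 in 129S2 against 4.49 to 4.58 elsewhere, where the brightest probe set had 6.64, 6.95 and 6.68 in DBA2/J and 8.09, 8.03 and 7.88 in C57BL/6J. The same inversion held in brain, kidney, liver and testis. Over 6 tissues the brightest probe set differed by -0.92 in 129S2, -0.75 in DBA2/J, 0.66 in C57BL/6J, 0.43 in AKR/J and 0.35 in C3HeB/FeJ. Which of the probe sets follows the amount of transcript was not tested, and no strain order of Xaf1 expression is given.

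**Figure D5:**
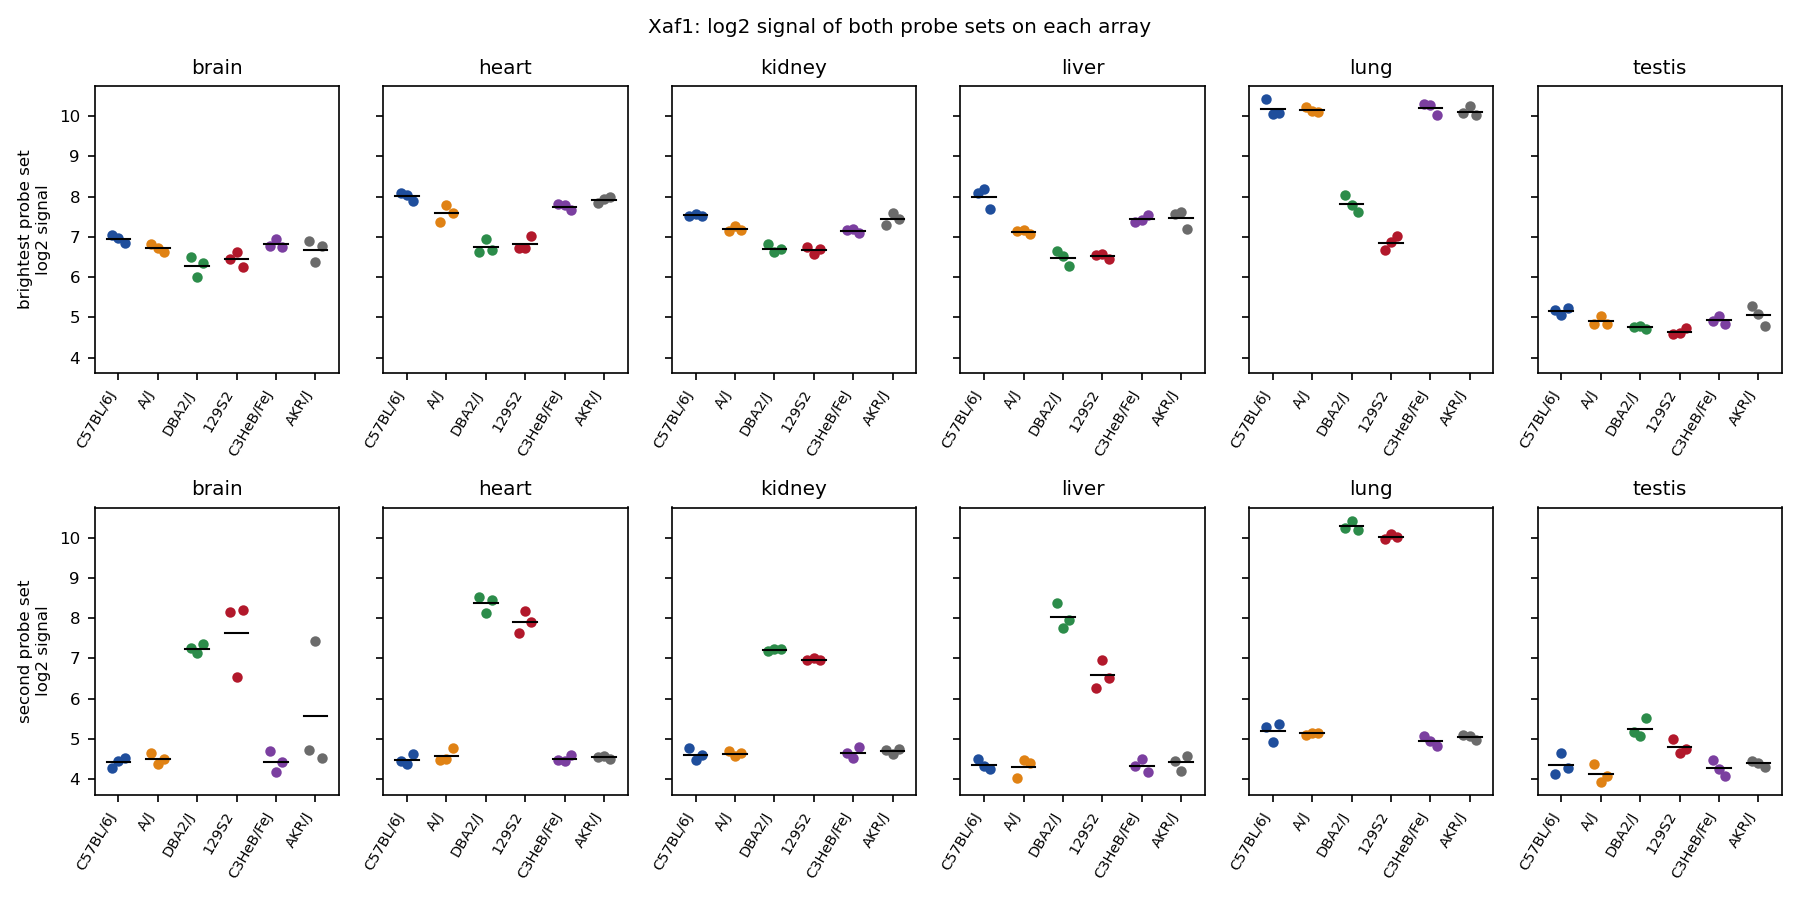
Log2 signal of both Xaf1 probe sets in 6 tissues, 1 point per array and a line at the mean of each strain's 3 arrays, the brightest probe set in the upper row and the other in the lower row. DBA2/J and 129S2 are the lowest strains by the upper probe set and the highest by the lower one. In brain 1 of the 129S2 points lies below the other two, and 1 of the AKR/J points lies far above the other two.

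The other Xaf1 probe set also bears on the doubted brain arrays. It read 8.15, 6.53 and 8.20 on the arrays labelled 129S2 1, 2 and 3, and 4.72, 7.44 and 4.52 on those labelled AKR/J 1, 2 and 3. The array labelled AKR/J 2 thus lay near the level of the strains with high signal, and the array labelled 129S2 2 between both levels. Over all members, 27 further probe sets of 18 genes gave 162 comparisons with the brightest ones. In 91 of these the brightest probe set had passed, and the other had the same sign in 78 and the opposite sign in 13. Where both passed, 41 of 47 had the same sign, and the 6 opposite ones were all Xaf1.

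Of 48 other genes of interferon production, reception, negative control and the interferon gamma arm, 38 were measured. The F test passed for 11 of 38 in liver (31.6% of all genes), 12 in lung (32.5%), 14 in testis (40.5%), 19 in kidney (46.1%), 6 in heart (21.0%) and 3 in brain (23.1%). The first 4 counts lay near the share of all genes, and those in heart and brain below it. In C57BL/6J liver 8 of the 38 were higher (9.94%), among them the chemokine genes Cxcl9 and Cxcl10, and 2 lower (9.24%), Ifnb1 and Ifnar1. In 129S2 liver 0 were higher (5.75%) and 7 lower (6.69%), among them Cxcl9, Cxcl10 and Cxcl11. Ifnar1, the receptor chain, had its lowest mean in C57BL/6J in all 6 tissues and passed the F test in each, with adjusted p-values from 0.000328 in testis to 0.0324 in heart. Its mean was 7.70 in C57BL/6J liver, against 8.05 in C3HeB/FeJ, and 6.82 in C57BL/6J testis, against 7.60 in 129S2. Cxcl9, a chemokine induced mostly by interferon gamma, was the only one to pass with a span of at least 1 log2 unit. It ran from 4.52 in C3HeB/FeJ to 6.78 in C57BL/6J in heart (adjusted p = 6.64e-07), from 6.40 in 129S2 to 7.86 in C57BL/6J in liver, from 5.03 in DBA2/J to 6.26 in C57BL/6J in kidney, and from 5.20 in A/J to 7.19 in 129S2 in lung. In lung 6 of the 38 were higher in 129S2 (6.37%) and 1 lower (6.89%).

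Members that lie side by side on a chromosome did not always pass in the same tissues. The listed genes lie on 15 chromosomes, and 7 pairs are direct neighbours: Rsad2 and Cmpk2, Ifi27l2a and Ifi27, Parp14 and Dtx3l, Dtx3l and Parp9, Ifit2 and Ifit3, Oasl2 and Oasl1, and Oas2 and Oas3. Rsad2 and Cmpk2 had the same highest and lowest strain in liver, DBA2/J and 129S2. Oasl1 passed in liver only and Oasl2 in each tissue, and neighbours were not tested against each other. Of the 8 members whose promoter stretches are shown above, Rsad2, Bst2, Ifit1, Ifit3, Oas1a, Stat2 and Trim30a passed in liver and Oas3 did not. Of all 39 members 31 passed there, and of all genes 31.6%. A link between the match and the strain differences was not tested.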

How the data were processed

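RNA from 6 tissues of 6 strains was hybridised to 18 arrays a tissue. The authors deposited 1 table of log2 signals, with 45101 probe sets, made with RMA per the submitters' processing notes. Its version, and whether arrays were normalised within or across tissues, are not given in the sources used here. Of the probe sets, 64 were controls, 932 named several genes, 9160 none and 34945 a single gene in the platform annotation. Array data carry no read depth, and the 3 arrays per group limit the precision. No pair of replicate arrays shared more than 0.166% identical values.

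Each tissue was fitted alone in limma 3.58.1 (R 4.3.3), with an F test of the 6 strains, contrasts of each strain against the other 5, and Benjamini-Hochberg adjustment over all genes. A fit of all arrays with the animal as random block (consensus correlation 0.017) gave the averages over tissues and the interaction. The fits were tested on simulated data.

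The members and lists were chosen with earlier results of these data known. Values are given in full for the 5 members of widest span that passed in each tissue, the 3 of largest difference in each strain and the 3 of smallest interaction p. Members passing in all tissues, those with an opposite probe set, and pathway genes that passed with a wide span were also named. Further members were named after their values were seen. Equal animal numbers did not pair strains: the mean correlation of their residuals ran from -0.0064 in brain to 0.082 in testis, with pairs as low as -0.50. For 129S2, titles and source names disagreed on the animal number of 4 arrays, and the titles were used. Alternatives tried were another prior, the mean over probe sets, quantile and median scaling, a signal minimum of 6, a joint fit of all tissues, the blocks, 129S2 numbers from the source names, left-out arrays and the doubted brain pair. The fits over tissues without liver and without that pair were added after seeing the data, as were the counts for C57BL/6J brain and AKR/J heart. Promoter sequences are those of RefSeq.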

Additional observations from a re-analysis of the deposited data

Results flagged for a closer look

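All 39 members had strain differences that depended on the tissue by the interaction F test (adjusted p under the threshold for 39 of 39, and for 72.4% of all genes), which is why they are listed here. The smallest adjusted p-values were 9.82e-31 for Xaf1, 3.60e-27 for Ifi27 and 5.32e-22 for Stat2. Xaf1 had its widest span in lung, where its probe sets read in opposite directions. Ifi27 had its widest span in liver and Stat2 in testis. Without liver, 33 of 39 members had such a difference. The share of all genes in that fit is not given here, and the 72.4% belongs to the fit with liver.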

How the results depend on the processing

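Counts of members and their directions mostly held across the alternatives, where 173 recomputed counts stayed within 1.5 times the value reported and 6 did not, and with single arrays left out 490 did and 24 did not. With the replicate block (animal number as random block) the liver count remained 31 and the brain count was 15, and no call count moved by over 1.5 times; without the animal block the interaction count was 39. A signal minimum of 6 left 13 of 39 members in testis and 26 in brain, with fewer genes tested. With it the testis count was 9, the AKR/J testis count 8, the 129S2 testis count 3 and the C3HeB/FeJ brain count 5. The shares of all genes under this minimum are not given here. Without the doubted arrays the C3HeB/FeJ brain count was 6, and without liver the DBA2/J count over tissues was 17. Leaving out single arrays gave ranges of 5 to 11 for 129S2 in heart, 13 to 22 in kidney and 5 to 9 in testis, 1 to 11 for AKR/J and 4 to 10 for C57BL/6J in heart and 18 to 29 in liver, 0 to 6 for C3HeB/FeJ and 1 to 6 for DBA2/J in brain, and 15 to 26 for DBA2/J over tissues. Reversals came from the choice of probe set alone. For Xaf1 the mean of its probe sets gave -1.07 in brain, -1.32 in heart and -0.86 in lung, and over tissues -0.28 in C57BL/6J, 0.92 in DBA2/J, 0.58 in 129S2, -0.45 in C3HeB/FeJ and -0.27 in AKR/J. Its other probe set gave -2.82 in brain, -3.89 in heart and -5.07 in lung, and a further Tor3a probe set gave -0.022 in lung. The cause was not tested. Rsad2 over tissues in AKR/J lost its call in 2 of the fits that left out an animal (adjusted p up to 0.157). Mx1 lay near the dim end of the arrays in brain, heart, kidney and liver.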
